A study of Mus musculus with 10 samples.

Results

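The chemokines and chemokine receptors of the P14 mouse lung were examined under increased pulmonary blood flow (IncPBF). The members were chosen by name: 44 gene symbols for secreted or membrane-bound chemokines, for their signalling receptors and for the atypical receptors that bind chemokines without the usual signalling. They comprised 14 CC ligands, 12 CXC ligands, 2 ligands of the CX3C and XC classes, 6 CC receptors, 5 CXC receptors and 5 atypical receptors. The symbols matched 46 rows of the 54532 genes in the expression table, because Ccl19 and Ccl21a each have a second row on an unplaced scaffold.

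Bulk RNA-sequencing covered 5 lungs of the IncPBF group and 5 lungs of the sham group, from wild-type mouse pups of the C57/BL6 strain. Pups of the IncPBF group were operated on at P7, when a needle was passed from the abdominal aorta into the inferior vena cava to leave a fistula between the vessels, and their lungs were taken at P14. Sham pups of the same ages were given the same anesthesia and laparotomy without the puncture. Both groups therefore carried a healing abdominal wound, and no unoperated lungs were compared. The labels name no litter, batch or sex and do not say how the pups were allocated, so the p-values measure the spread between these lungs.

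Chemokines are small proteins that guide the movement of cells. Most are sorted by the spacing of the cysteines near their amino end into CC, CXC, CX3C and XC classes, and they act on receptors coupled to inhibitory G proteins. Inflammatory chemokines are made on demand and draw neutrophils or monocytes out of the blood, whereas homeostatic chemokines are made steadily and place lymphocytes, dendritic cells and progenitor cells in tissues. Atypical receptors take up or present chemokines and so shape their local concentration. In the developing lung the best known member is the CXCL12 system, whose ligand and receptors take part in the growth of vessels.

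The depth and make-up of the lungs bear on these values. Fragments assigned to genes numbered 16103423 to 20318525 per lung. The tissue label was met by Sftpc, the surfactant protein gene of alveolar type 2 cells, at 9583 to 14074 FPKM over the lungs. Sex-linked expression ran nearly parallel with the groups. Xist, which is transcribed from the inactive X chromosome, was at 52.4 to 66.5 FPKM in IncPBF lungs 2 to 5, at 0.0144 in IncPBF lung 1 and at 0.0770 or less in every sham lung. Ddx3y, a Y-linked gene, was at 18.6 FPKM in IncPBF lung 1 and at 21.8 to 24.6 in the sham lungs. For IncPBF lungs 2 to 5 the surgery and the sex-linked expression therefore cannot be told apart, and IncPBF lung 1 is given beside the results for that reason. In bulk tissue, fewer cells of a type and less RNA per cell cannot be told apart either.

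Which chemokine system genes differed between the IncPBF and sham lungs was asked first. Of the 46 rows, 27 had a mean of at least 0.5 FPKM (fragments scaled by transcript length and by depth) and were tested with limma on log2(FPKM + 0.1), with Benjamini-Hochberg adjustment over 15388 genes. Upregulated in the IncPBF group were the monocyte-attracting ligand Ccl7, its receptor Ccr2, the lymphocyte-attracting ligand Cxcl13 and the CXCL12 scavenging receptor Ackr3. Downregulated were the epithelial and stromal ligands Cxcl14 and Cxcl15, the membrane-bound ligand Cx3cl1, and the atypical receptors Ccrl2 and Ackr2. These 9 of 27 members made up 33.3%, beside 32.3% of all genes tested, so the share of changed members was near the background. The 4 upregulated members stood beside a background of 16.1%, and the 5 downregulated members beside a background of 16.2%. The median log2 fold change was -0.00 over the 27 members and 0.01 over all genes tested. On GRCm38 the table places Ccl7 at chr11:82045712-82047525, Ccr2 at chr9:124101950-124113557, Cxcl13 at chr5:95956951-95961068 and Ackr3 at chr1:90203980-90216751. The downregulated genes lie at chr13:56288643-56296551 (Cxcl14), chr5:90794534-90803067 (Cxcl15), chr8:94772009-94782427 (Cx3cl1), chr9:111054486-111057519 (Ccrl2) and chr9:121898355-121911074 (Ackr2). By class, 5 of the 15 ligands and 4 of the 12 receptors tested were called. When every lung was scaled to an equal total on genes, the split became 5 upregulated and 3 downregulated, since Ccl9 was added and Cxcl15 and Ackr2 were lost.

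**Figure D1:**
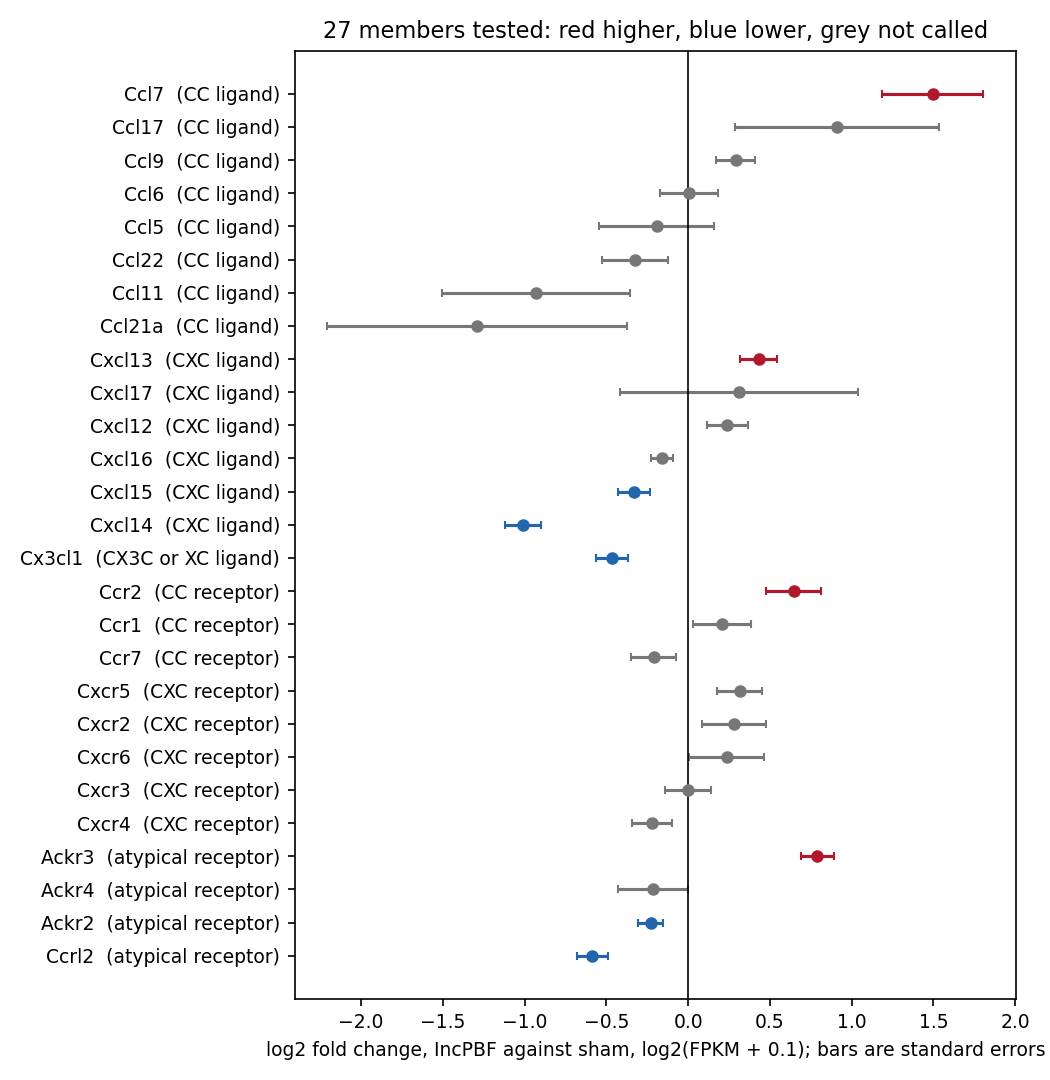
Log2 fold changes (IncPBF against sham) of the 27 members tested, ordered by class and then by size. Points are limma estimates on log2(FPKM + 0.1), bars are standard errors, red marks the 4 members called higher, blue the 5 called lower and grey the 18 not called. Estimates run from -1.29 for Ccl21a, with a wide error, to 1.50 for Ccl7.

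With log2 Xist as a covariate, 2 of the 27 members were called (7.41%), beside 4.82% of all genes. They were Cxcl14, with a log2 fold change of -0.99 and an adjusted p of 0.0227 in limma, and Ccl7, with 2.26 and 0.0264. IncPBF lung 1 was the only IncPBF lung with low Xist, so the group effect in that fit rests in practice on this 1 lung against the sham lungs, which is assumed to vary like the others. Its log2 difference from the sham mean was 2.33 for Ccl7 and -1.0 for Cxcl14. The same lung lay outside the sham range for each of the 9, on the side of the other IncPBF lungs. The 9 were called with this lung in the IncPBF group, so its side is no separate support for them. Between-group gaps without any overlap of the lungs occurred for 6 of the 27 members (22.2%), beside 23.2% of all genes tested.

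Promoter sequences are shown for 4 members. Cxcl14 and Ackr3 had the lowest adjusted p of the downregulated and the upregulated members, and Cxcl1 and Cxcl2 are neighbours on chromosome 5 whose low counts are described further on. Each is the 120 bases before the transcription start in RefSeq on GRCm38.p6, read 5′ to 3′ on the gene's strand. Capitals mark matches to the NF-kB consensus, the sequence bound by the inflammatory NF-kB factors, or to TATAAA, the core of the TATA box. The window of Cxcl1 is chr5:90891125-90891244 on the plus strand, that of Cxcl2 chr5:90903779-90903898 on the plus strand, that of Ackr3 chr1:90203860-90203979 on the plus strand and that of Cxcl14 chr13:56296552-56296671 on the minus strand.
Cxcl1: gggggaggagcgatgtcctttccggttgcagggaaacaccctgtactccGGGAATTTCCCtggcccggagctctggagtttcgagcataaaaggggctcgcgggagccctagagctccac
Cxcl2: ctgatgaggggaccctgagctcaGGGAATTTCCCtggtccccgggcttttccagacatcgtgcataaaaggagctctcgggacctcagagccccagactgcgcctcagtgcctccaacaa
Ackr3: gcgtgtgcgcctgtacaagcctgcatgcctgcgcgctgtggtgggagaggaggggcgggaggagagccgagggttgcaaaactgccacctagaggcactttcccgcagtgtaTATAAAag
Cxcl14: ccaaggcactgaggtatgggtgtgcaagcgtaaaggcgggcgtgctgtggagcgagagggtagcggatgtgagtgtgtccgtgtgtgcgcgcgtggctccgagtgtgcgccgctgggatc

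Cxcl1 and Cxcl2 share the run GGGAATTTCCC, which begins 71 bases before the start of Cxcl1 and 97 bases before that of Cxcl2. Promoters of 32 members were in the RefSeq table. Over the whole windows of 250 bases before to 50 bases after the start, the NF-kB consensus was found on either strand in 10 of the 32, which were Ccl9, Ccl20, Cxcl1, Cxcl2, Cxcl10, Ccr1, Ccr3, Ccr6, Ackr2 and Ccrl2. It was found in 9.55% of the 27025 genes with a promoter in the table. TATAAA on either strand was found in 8 of the 32 members, beside 15.7% of all genes. Of the called members, Ackr2 and Ccrl2 had a match to the consensus, and the others with a match were not called or not tested. A match is a description of these letters, and binding was not measured.

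Monocyte-attracting CC ligands and their receptor were the first group. Ccl7 draws monocytes through CCR2. Its values were 1.81, 0.666, 0.811, 1.01 and 0.842 FPKM in IncPBF lungs 1 to 5, against 0.209, 0.331, 0.464, 0.327 and 0.143 in sham lungs 1 to 5. Every IncPBF lung was above every sham lung, and IncPBF lung 1 was the highest. The mean was 1.03 ± 0.453 FPKM in the IncPBF group, against 0.295 ± 0.124 in the sham group (SD, n = 5 each), with a log2 fold change of 1.50 (SE 0.31) and a limma adjusted p of 0.00403. Ccl7 reached the level for testing, with a mean of 0.661 FPKM over all lungs, only through the IncPBF group, so its place among the calls is no support for the count of members called. These values rest on only 10 to 28 fragments per IncPBF lung and 2 to 7 per sham lung, and with a pseudocount of 1 the log2 fold change was 0.63. 

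Ccr2 encodes the receptor that lets inflammatory monocytes leave the marrow and enter tissue. Its values were 4.12, 3.27, 3.19, 2.57 and 3.53 FPKM in IncPBF lungs 1 to 5, and 2.15, 1.66, 1.91, 3.11 and 1.78 in sham lungs 1 to 5. Sham lung 4 reached into the IncPBF range, and the other sham lungs lay below it. Ccr2 was upregulated 1.57-fold in the means, with a log2 fold change of 0.65 (SE 0.17) and a limma adjusted p of 0.0131. Ccl2, the principal CCR2 ligand, was below the level for testing at 1.00, 0.375, 0.428, 0.255 and 0.423 FPKM against 0.294, 0.513, 0.233, 0.414 and 0.101. Only IncPBF lung 1 exceeded the sham lungs for Ccl2, and the exact two-sided permutation p was 0.254. Ccl12, a further mouse CCR2 ligand outside the members, was at 1.21 to 3.76 FPKM in the IncPBF group, against 0.593 to 2.28 in the sham group, with a limma adjusted p of 0.0777.

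Markers of monocytes and interstitial macrophages moved in both directions beside Ccl7 and Ccr2. Of the 10 tested, Plac8 rose, with a log2 fold change of 1.01, while Lyz2, C1qc and C1qb fell, with -0.78, -0.38 and -0.35. Their summed level was 1192 to 1713 FPKM in the IncPBF group, against 2260 to 2823 in the sham group, and none of the 10 was at 0 throughout. Most of the sum was Lyz2, at 1092 to 1580 FPKM against 2127 to 2697. Which cells gave the Lyz2 reads is not known in bulk tissue. The part of these markers in the Ccl7 and Ccr2 results was not tested.

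**Figure D2:**
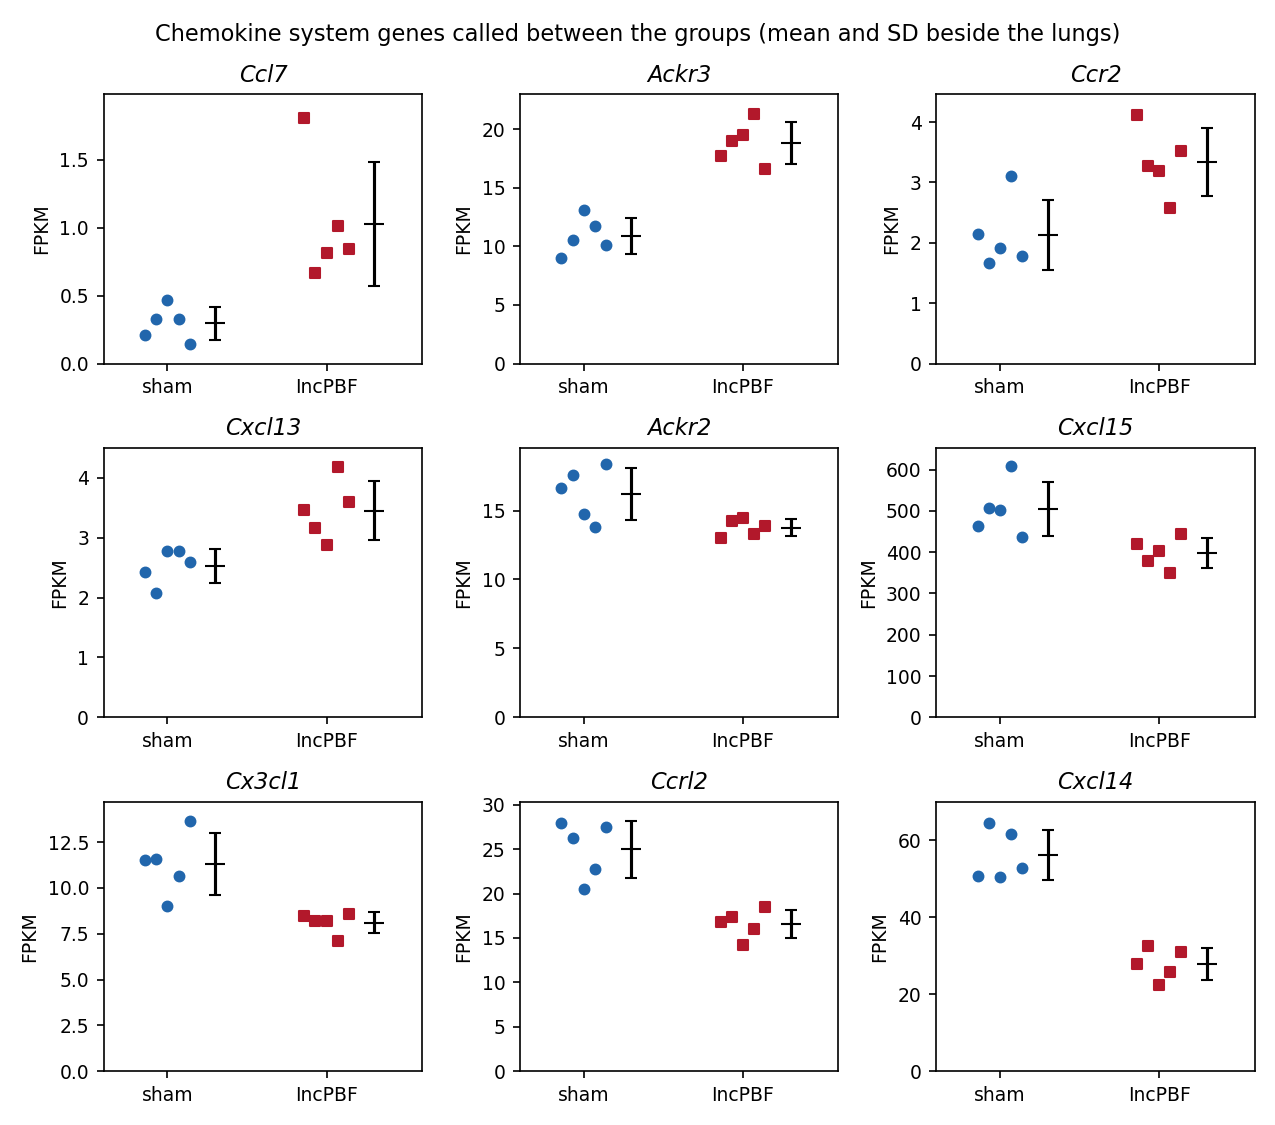
FPKM of the 9 called members in each lung, with circles for the 5 sham lungs, squares for the 5 IncPBF lungs and a bar for the mean with 1 SD beside each group. The axes start at 0. The groups are apart for Ccl7, Ackr3, Cxcl13, Cx3cl1, Ccrl2 and Cxcl14, and overlap for Ccr2, Ackr2 and Cxcl15.

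The CXCL12 system had one changed component. Cxcl12 encodes the ligand, CXCR4 transmits its signal, and ACKR3 (also known as CXCR7) removes the ligand from the surroundings of the cell. Ackr3 was at 17.7, 19.0, 19.5, 21.3 and 16.6 FPKM in IncPBF lungs 1 to 5, and at 9.02, 10.5, 13.1, 11.7 and 10.1 in sham lungs 1 to 5. The lowest IncPBF lung was above the highest sham lung. Ackr3 was upregulated from 10.9 ± 1.56 to 18.8 ± 1.79 FPKM (SD, n = 5 each), 1.73-fold in the means, with a log2 fold change of 0.79 (SE 0.10) and a limma adjusted p of 0.000213. The log2 difference from the sham mean was 0.71 in IncPBF lung 1 and 0.81 in the mean of IncPBF lungs 2 to 5. With the Xist covariate the log2 fold change of Ackr3 was 0.68 with a limma adjusted p of 0.0527.

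Cxcl12 was abundant at 53.5, 47.1, 50.5, 48.3 and 54.5 FPKM in the IncPBF lungs and at 51.2, 42.4, 30.2, 49.3 and 45.0 in the sham lungs. Sham lung 3 was lowest, the lungs of the groups were interleaved, and the log2 fold change was 0.24 (SE 0.12) at a limma adjusted p of 0.163. Cxcr4 was at 49.7, 44.7, 46.6, 46.2 and 46.1 FPKM in the IncPBF lungs, a narrow range, and at 58.5, 59.4, 39.0, 67.6 and 51.8 in the sham lungs. Its log2 fold change was -0.22 (SE 0.12), with an adjusted p of 0.187. Sham lung 3 was again the lowest sham lung, and without it Cxcr4 was called lower at -0.34 with an adjusted p of 0.00563.

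**Figure D3:**
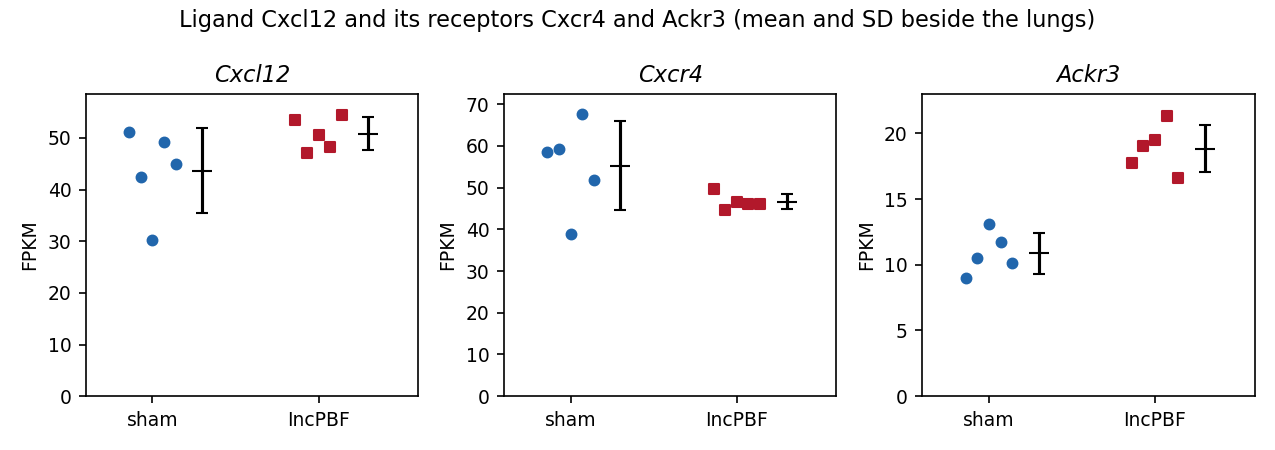
FPKM of the ligand Cxcl12 and of its receptors Cxcr4 and Ackr3 in each lung, with circles for sham, squares for IncPBF and the mean with 1 SD beside each group. Ackr3 is 16.6 to 21.3 in the IncPBF group, against 9.02 to 13.1 in the sham group, whereas the groups overlap for Cxcl12 and Cxcr4.

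The lymphocyte-attracting ligands gave one call. Cxcl13 draws B cells through CXCR5 and is made by stromal cells of lymphoid tissue. It was at 3.46, 3.16, 2.87, 4.18 and 3.60 FPKM in the IncPBF lungs and at 2.42, 2.08, 2.77, 2.78 and 2.60 in the sham lungs. No sham lung reached the lowest IncPBF lung, although IncPBF lung 3 and sham lungs 3 and 4 were close. Cxcl13 was upregulated 1.37-fold, with a log2 fold change of 0.43 (SE 0.11) and a limma adjusted p of 0.0131. Its receptor gene Cxcr5 was at 1.47 to 2.03 FPKM against 1.12 to 1.77, with a log2 fold change of 0.32 and an adjusted p of 0.0988. Cxcr5 lies across Bcl9l on the other strand, which is more abundant (15.3 against 17.8 FPKM), and the strand setting of the counting is not given in the sources used here, so reads of the pair may be mixed. Of 6 B cell and plasma cell markers tested with limma, 0 were called and 1 had an unadjusted p under 0.05.

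Ccl21a and Ccl19 call dendritic cells and naive T cells to lymphoid tissue through CCR7. Ccl19 was at 0 fragments in all 10 lungs in both of its rows, and a count of 0 allows up to 3 fragments, or 0.167 to 0.201 FPKM at the 867 bases of the chromosome 4 row and 0.442 to 0.532 FPKM at the 327 bases of the scaffold row. These limits cover only reads that the counting assigned to a row. How any reads shared by the 2 rows were counted is not given in the sources used here. Ccl21a on chromosome 4 held 4 fragments over the IncPBF lungs and 2 over the sham lungs. Its scaffold row was at 2.19, 2.92, 3.64, 3.46 and 5.75 FPKM in IncPBF lungs 1 to 5, and at 2.36, 59.3, 41.2, 1.56 and 4.57 in sham lungs 1 to 5. Sham lungs 2 and 3 stood far above the other 8 lungs, and the log2 fold change of -1.29 had a standard error of 0.92 and an adjusted p of 0.311.

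Ccl21a values are uncertain because the gene has near-identical copies. The transcript of Gm10591 on chromosome 4 differs from the chromosome 4 transcript of Ccl21a in 2 of its 402 bases (99.5% identical), and it is identical to that of Ccl21b. Gm10591 was at 28.7, 8.49, 5.39, 3.46 and 17.0 FPKM in IncPBF lungs 1 to 5 and at 15.7, 16.0, 12.3, 11.2 and 8.0 in sham lungs 1 to 5. Summed over 9 rows of the copies, the level was 7.93 to 31.1 FPKM in the IncPBF group, against 12.8 to 75.6 in the sham group. The sum was highest in sham lungs 2 and 3, as for the scaffold row alone. Beside it, 3 of 5 lymphatic endothelial markers tested fell, namely Lyve1 (-0.83), Flt4 (-0.56) and Pdpn (-0.36), the last also a gene of alveolar type 1 cells. Prox1, the transcription factor that defines lymphatic endothelium (-0.06, adjusted p = 0.824), and Mmrn1 (-0.36, adjusted p = 0.224) did not pass the test. The summed level of these markers was 116 to 152 FPKM in the IncPBF group, against 202 to 220 in the sham group, with none at 0 throughout, and their part in the Ccl21a values was not tested. Ccr7 was at 3.48 to 4.75 FPKM against 3.55 to 6.23, with an adjusted p of 0.276.

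**Figure D4:**
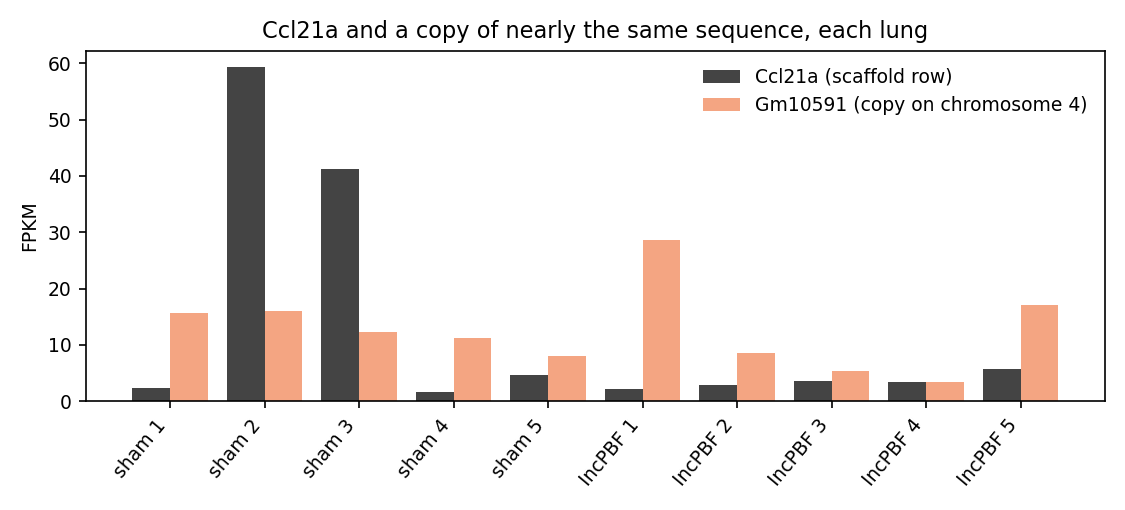
FPKM of the scaffold row of Ccl21a (dark bars) and of its near-identical copy Gm10591 (light bars) in each of the 10 lungs. Sham lungs 2 and 3 hold 59.3 and 41.2 FPKM of Ccl21a, the other lungs 1.56 to 5.75, and Gm10591 does not follow the same order.

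Of the epithelial and stromal chemokines, Cxcl14 and Cxcl15 fell, and Cxcl16 and Cxcl17 were not called. Cxcl14 is a steadily produced ligand of epithelia and fibroblasts with antimicrobial activity. It was at 27.8, 32.7, 22.3, 25.8 and 31.1 FPKM in IncPBF lungs 1 to 5 and at 50.9, 64.6, 50.6, 61.7 and 53.0 in sham lungs 1 to 5. All IncPBF lungs lay well below all sham lungs. The mean fell from 56.1 ± 6.54 to 27.9 ± 4.14 FPKM (SD, n = 5 each), a ratio of 0.498, with a log2 fold change of -1.01 (SE 0.11) and a limma adjusted p of 8.67e-05. The log2 difference from the sham mean was -1.0 in IncPBF lung 1 and -1.01 in the mean of the other IncPBF lungs. Cxcl14 was called in all 21 alternative fits, with adjusted p from 1.06e-05 to 0.0227. Beside it, all 4 mesothelial markers tested fell, namely Lrrn4 (-1.76), Upk3b (-1.27), Msln (-0.88) and Upk1b (-0.82). The summed level of the mesothelial list was 46.6 to 75.9 FPKM in the IncPBF group, against 82.1 to 158 in the sham group, with none at 0 throughout. Of 8 fibroblast and smooth muscle markers, Acta2 (1.57), Myh11 (0.73) and Col1a1 (0.35) rose and Pdgfra fell (-1.36), with sums of 967 to 1284 against 832 to 1020 FPKM and none at 0 throughout. The part of these cells in the Cxcl14 result was not tested.

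Cxcl15, or lungkine, is a mouse chemokine of airway and alveolar epithelium that draws neutrophils into the airspace. It was the most abundant member and made up 56.7% to 63.6% of the summed FPKM of the members in a lung. Its values were 419, 379, 404, 349 and 444 FPKM in the IncPBF lungs and 464, 506, 502, 609 and 438 in the sham lungs. IncPBF lung 5 exceeded sham lung 5, and the other lungs kept the groups apart. Cxcl15 was downregulated with a log2 fold change of -0.33 (SE 0.10) and a limma adjusted p of 0.0255, but it was called in only 15 of 21 alternative fits, with adjusted p up to 0.439. Of 9 lung epithelial markers tested, Sftpb (-0.64), Ager (-0.54) and Hopx (-0.50) fell beside Cxcl15. The summed level of the 9 was 17527.5 to 21796 FPKM in the IncPBF group, against 14472 to 25775 in the sham group with none at 0 throughout, and their part in the Cxcl15 result was not tested.

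Cxcl17, a mucosal chemokine of the airways, varied more within the groups than between them. It was at 1.90, 3.02, 1.78, 7.31 and 0.696 FPKM in the IncPBF lungs and at 1.98, 1.95, 7.75, 1.65 and 0.302 in the sham lungs, with a log2 fold change of 0.31 (SE 0.73) and an adjusted p of 0.780. Scgb1a1, the secretoglobin of airway club cells and chosen after its values were seen, was likewise highest in sham lung 3 (11743 FPKM) and IncPBF lung 4 (10003 FPKM) and lowest in sham lung 5 (128 FPKM). The part of airway tissue in the Cxcl17 values was not tested.

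Cxcl16 is a membrane-bound ligand of CXCR6 and was at 12.9 to 15.5 FPKM against 14.9 to 17.3, with a log2 fold change of -0.16 and an adjusted p of 0.0920. Cxcr6, found on T cell subsets, was at 0.696 to 1.11 FPKM against 0.542 to 1.33 (adjusted p = 0.466). Cxcr6 overlaps Fyco1 on the other strand. Fyco1 was more abundant and was downregulated (log2 fold change -0.61, limma adjusted p = 0.00129).

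Cx3cl1, or fractalkine, is an adhesive ligand on endothelium and epithelium, shed by the proteases ADAM10 and ADAM17. It was at 8.49, 8.19, 8.20, 7.11 and 8.55 FPKM in the IncPBF lungs and at 11.5, 11.6, 9.03, 10.6 and 13.7 in the sham lungs. The groups were apart, with sham lung 3 nearest to the IncPBF lungs. Cx3cl1 was downregulated from 11.3 ± 1.69 to 8.11 ± 0.583 FPKM (SD, n = 5 each), with a log2 fold change of -0.46 (SE 0.10) and a limma adjusted p of 0.00474. Its receptor gene Cx3cr1, outside the members, was at 4.16 to 7.38 FPKM against 3.18 to 4.98 (adjusted p = 0.113). Neither Adam10 (0.04, adjusted p = 0.767) nor Adam17 (-0.11, adjusted p = 0.284) passed the test. Of 5 venous endothelial markers tested, Slc6a2 (-1.55) and Vwf (-0.67) fell. The summed level of the venous list was 103 to 111 FPKM in the IncPBF group, against 121 to 142 in the sham group, with none at 0 throughout, and their part in the Cx3cl1 result was not tested.

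Of the 4 atypical receptors tested 3 were called, beside 32.3% of all genes, and 0 with the Xist covariate. Ackr3 is given above. CCRL2 binds chemerin, an attractant of macrophages and dendritic cells, and presents it to cells that carry the signalling receptor CMKLR1. Ccrl2 was at 16.8, 17.4, 14.2, 16.0 and 18.5 FPKM in the IncPBF lungs and at 27.9, 26.3, 20.6, 22.7 and 27.5 in the sham lungs. Every IncPBF lung was below every sham lung, and the log2 fold change was -0.59 (SE 0.10) with a limma adjusted p of 0.00117. The chemerin receptor gene Cmklr1 fell as well, from 41.2 ± 8.84 to 19.7 ± 3.86 FPKM (SD, n = 5 each), with a log2 fold change of -1.05 and an adjusted p of 0.00104. Rarres2, which encodes chemerin, was at 17.5 to 22.1 FPKM against 20.6 to 25.1 and did not pass the test (adjusted p = 0.0859). Of 10 alveolar macrophage markers tested, Fabp1 (-1.10), Krt79 (-0.91), Ear1 (-0.81) and Car4 (-0.45) fell and none rose. Car4 was at 43.0 to 54.7 FPKM in the IncPBF group, against 49.9 to 77.9 in the sham group. Which cells gave its reads is not known in bulk tissue. The summed level of the 10 was 115 to 460 FPKM in the IncPBF group, against 143 to 439 in the sham group, with none at 0 throughout. In that sum Chil3 alone was at 22.9 to 319 FPKM against 38.9 to 277. The part of these markers in the Ccrl2 and Cmklr1 results was not tested.

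ACKR2 scavenges inflammatory CC chemokines, largely on lymphatic endothelium. Ackr2 was at 13.0, 14.2, 14.5, 13.3 and 13.8 FPKM in the IncPBF lungs and at 16.6, 17.6, 14.8, 13.8 and 18.3 in the sham lungs. Sham lung 4 fell among the IncPBF lungs. The log2 fold change was -0.23 (SE 0.08) with a limma adjusted p of 0.0423, and Ackr2 was called in only 9 of 21 alternative fits, with adjusted p from 0.0111 to 0.263. Of the 5 lymphatic markers tested, Lyve1, Flt4 and Pdpn fell and Prox1 and Mmrn1 did not pass the test, with the sums given for Ccl21a, and their part in the Ackr2 result was not tested. Ackr4, which scavenges CCL19 and CCL21, was at 0.797 to 1.44 FPKM against 1.09 to 2.06 (adjusted p = 0.475). Ackr1, the receptor of venules and red cells, was below the level for testing at 0.0771 to 0.274 FPKM against 0.0409 to 0.151. Of 5 erythroid markers tested, 4 fell, among them Alas2 (-1.67), Hba-a1 (-1.58) and Hbb-bt (-1.50), and the median of the list was -1.50. Their summed level was 240 to 1882 FPKM in the IncPBF group, against 1449 to 2329 in the sham group, with none at 0 throughout, and their part in the Ackr1 values was not tested. Reads of the globin genes may be shared with near-identical copies.

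The neutrophil-attracting CXC ligands Cxcl1, Cxcl2 and Cxcl5 were close to the limit of detection, unlike the abundant Cxcl15 described above. CXCL1, CXCL2 and CXCL5 act through CXCR2, and none of the 3 genes reached the level for testing. Cxcl1 had 7, 12, 12, 15 and 20 fragments in IncPBF lungs 1 to 5 and 2, 5, 3, 6 and 3 in sham lungs 1 to 5, or 0.372 ± 0.125 against 0.109 ± 0.0441 FPKM (SD, n = 5 each). Cxcl5 had 6, 15, 12, 12 and 13 fragments in the IncPBF lungs and 5, 3, 5, 5 and 0 in the sham lungs. For both genes all IncPBF lungs were above all sham lungs, with the smallest p that the 252 assignments allow in the exact two-sided permutation test (p = 0.00794). IncPBF lung 1 was the lowest of its group for both. Cxcl2 had 5, 6, 8, 3 and 2 fragments against 0, 0, 0, 1 and 2, with overlap at IncPBF lung 5 and sham lung 5 and an exact p of 0.0159.

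Among the members with a mean of 0.1 to 0.5 FPKM, 2 of 10 had every IncPBF lung above every sham lung, beside 2.63% of the 5322 genes at that level, and 0 had the reverse. When limma was run without the filter on low values, 13.4% of 31400 genes were called, and 10 members were called, 7 higher and 3 lower. Of the 17 untested rows that entered this fit, the 3 called were Cxcl1 (adjusted p = 0.0139), Cxcl2 (0.0217) and Cxcl5 (0.0364). Cxcr2 was at 0.675 to 1.17 FPKM against 0.546 to 0.976, with a log2 fold change of 0.28 and an adjusted p of 0.297. Of 8 neutrophil markers tested with limma, 0 were called and 0 had an unadjusted p under 0.05. Their summed level was 41.8 to 82.9 FPKM in the IncPBF group, against 33.3 to 70.3 in the sham group, none was at 0 throughout, and their part in the counts of these ligands was not tested. Of 14 genes tested from a list of inducers of chemokine genes, 12 were not called, beside 32.3% of all genes tested that were called. Il1b, a cytokine that induces these ligands, rose from 0.700 ± 0.246 to 1.89 ± 0.584 FPKM (SD, n = 5 each; log2 fold change 1.31, limma adjusted p = 0.00289). With the Xist covariate its log2 fold change was 1.27 with a limma adjusted p of 0.146. Nfkbia, an NF-kB inhibitor, fell (-0.30, adjusted p = 0.0296).

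**Figure D5:**
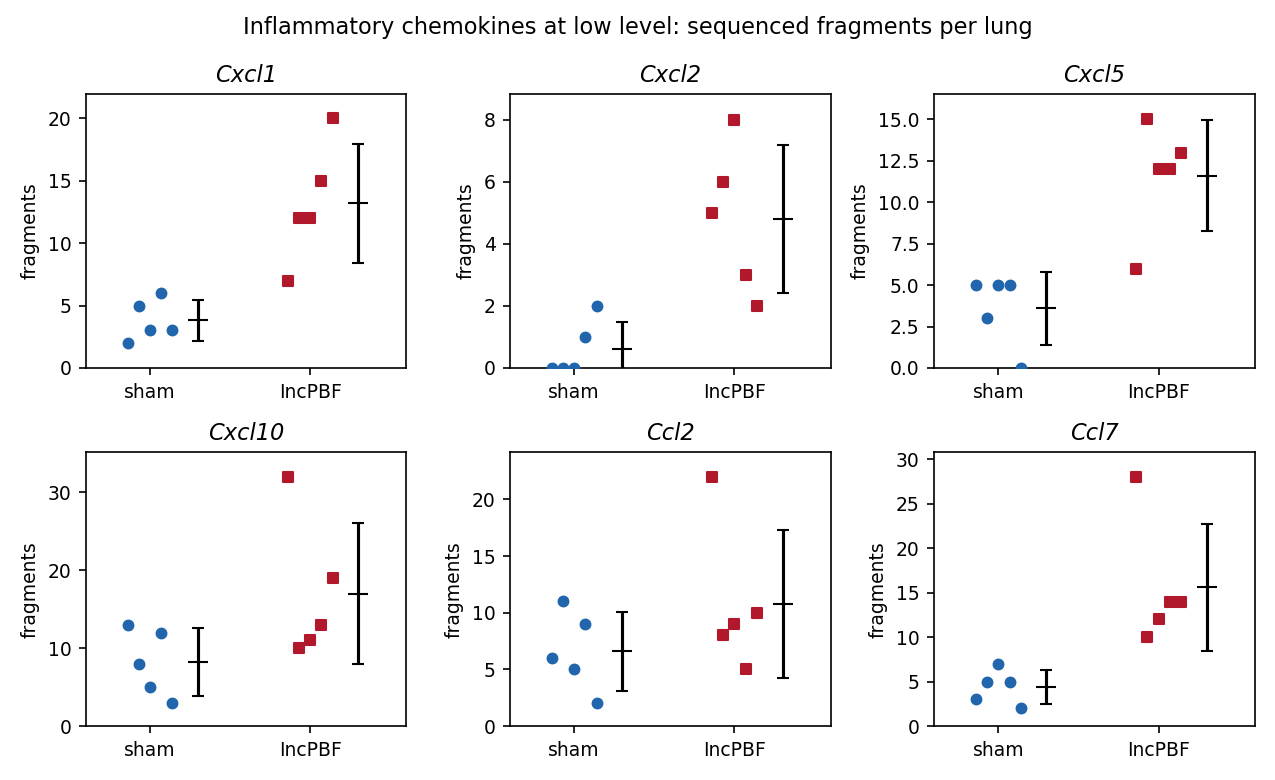
Sequenced fragments per lung for 6 inflammatory ligands at low level, with circles for sham, squares for IncPBF and the mean with 1 SD beside each group. For Cxcl1, Cxcl5 and Ccl7 the groups are apart (7 to 20 against 2 to 6 fragments for Cxcl1), and for Cxcl2, Cxcl10 and Ccl2 they overlap.

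Interferon-induced CXC ligands recruit activated T cells through CXCR3. Cxcl10 had 32, 10, 11, 13 and 19 fragments in the IncPBF lungs and 13, 8, 5, 12 and 3 in the sham lungs. IncPBF lung 1 was the highest, the groups overlapped, and the exact p was 0.0714. Cxcl9 held 18 fragments over the IncPBF group and 20 over the sham group, and Cxcl11 held 2 and 0. The receptor gene Cxcr3 was at 0.747 to 0.890 FPKM against 0.706 to 0.950, with a log2 fold change of -0.00 (SE 0.14).

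Inflammatory CC ligands other than Ccl7 gave no call. Ccl5, made by T and NK cells, was at 4.20, 1.56, 1.92, 1.99 and 1.45 FPKM in the IncPBF lungs and at 1.63, 1.88, 1.77, 2.40 and 5.62 in the sham lungs, so that IncPBF lung 1 and sham lung 5 stood above the rest (adjusted p = 0.71). The same lungs were the highest of their groups for the cytotoxic cell markers Gzma (6.38 FPKM in IncPBF lung 1 and 3.48 in sham lung 5, against 0.520 to 1.48 in the others) and Nkg7 (3.06 and 2.64, against 1.03 to 1.63). For the cytotoxic cell marker Klrd1, IncPBF lung 1 was again the highest of its group (1.62 FPKM), but sham lung 5 was the lowest sham lung (1.12 FPKM). Of the 8 NK and cytotoxic cell markers 3 were tested, with no call in limma and none at an unadjusted p under 0.05. Their summed level was 4.39 to 13.2 FPKM in the IncPBF group, against 3.47 to 8.60 in the sham group, with none at 0 throughout, and their part in the Ccl5 values was not tested. Ccl3 was at 0.126 to 0.681 FPKM against 0.0693 to 1.12, and Ccl4 at 0.164 to 0.647 against 0.0870 to 0.322. Ccl6 and Ccl9 are ligands of CCR1 in macrophages. Ccl6 was abundant at 31.9 to 50.5 FPKM against 29.4 to 50.2, with a log2 fold change of 0.00 (SE 0.18). Ccl9 was at 3.21, 3.21, 3.54, 2.74 and 2.89 FPKM against 3.06, 2.00, 2.49, 2.95 and 2.24, with a log2 fold change of 0.29 and an adjusted p of 0.0878. It was called without sham lung 1, which was its highest sham lung (adjusted p = 0.0470), and with an equal total per lung (0.0448). Ccr1 was at 1.64 to 2.57 FPKM against 1.44 to 2.73 (adjusted p = 0.409).

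Eosinophil and T helper cell attractants were variable. Ccl11, or eotaxin, was at 0.287, 0.789, 0.750, 0.964 and 0.757 FPKM in the IncPBF lungs and at 2.68, 0.785, 1.77, 3.92 and 0.265 in the sham lungs. Sham lungs 1, 3 and 4 were above all IncPBF lungs and sham lung 5 was below them. The log2 fold change was -0.93 (SE 0.57) with an adjusted p of 0.241, and -1.43 with an adjusted p of 0.0311 without sham lung 5. Ccl24, or eotaxin-2, was at 0.224 to 0.920 FPKM against 0.0410 to 0.566, and their receptor gene Ccr3 held 13 and 15 fragments over the groups. Ccl17 and Ccl22 are products of dendritic cells that act on CCR4. Ccl17 was at 2.37 to 8.11 FPKM against 0.723 to 8.75 (adjusted p = 0.293), and Ccl22 at 0.997 to 1.90 against 1.19 to 2.16 (adjusted p = 0.249). Of the 9 markers of eosinophils, mast cells and basophils 4 were tested, of which the mast cell protease genes Tpsb2 (0.92) and Mcpt4 (0.91) rose and Kit (-0.55), which endothelial cells also express, fell. Mcpt4 reached the level for testing only through the IncPBF group (mean 0.793 FPKM, against 0.390 in the sham group). Its call is therefore no support for a count of markers called. The eosinophil granule genes Prg2 and Epx were below the level for testing, at 0 to 0.665 and 0 to 0.0407 FPKM over the lungs. The summed level of the list, most of it Kit, was 27.1 to 31.2 FPKM in the IncPBF group, against 35.3 to 42.7 in the sham group, with none at 0 throughout, and their part in the values of these ligands was not tested.

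The remaining members were at or near the limit of detection. Ccl20 held 7 fragments over the IncPBF group and 4 over the sham group, and its receptor gene Ccr6 was at 0.200 to 0.332 FPKM against 0.0916 to 0.248. Xcl1, made by NK and T cells, held 13 and 4 fragments. Ccr9, a homing receptor of thymus and gut, was at 0.0504 to 0.114 FPKM against 0.0414 to 0.145. Ccr9 overlaps Lztfl1 on the other strand, as Cxcl10 and Cxcl11 overlap Art3, Ackr4 overlaps Acad11 and Cxcl16 overlaps Zmynd15. Ccr9 also overlaps Gm10052 on the other strand, which was at 14.6 FPKM against 11.2 (log2 fold change 0.39, limma adjusted p = 0.00273). Ackr1 overlaps Cadm3 on the same strand (0.320 against 0.216 FPKM). Reads of all these pairs may be mixed too. Of the CXC receptors, 0 of 5 were called by limma on log2 FPKM, beside 32.3% of all genes, or by limma-voom on fragments, and 1 (Cxcr5) had an unadjusted p under 0.05.

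Further genes of the pathway were read from lists. Of 21 chemokine and receptor genes outside the members, 7 rows were tested with limma and 0 were called, beside 32.3% of all genes. The 2 at an unadjusted p under 0.05, Ccl12 and Cx3cr1, had positive log2 fold changes (0.92 and 0.38). Of 31 genes for chemokine receptor signalling that were tested, 3 rose and 6 fell, a share near the 32.3% of all genes. The risers included Fgr (log2 fold change 0.59), a tyrosine kinase of myeloid cells, and the Rac activator Tiam1 (0.51). The largest falls were in the beta-arrestin gene Arrb1 (-0.46), the Rac activator Elmo1 (-0.33) and the receptor kinase Grk5 (-0.26). Chemokines are cut by proteases and held on heparan sulfate, and of 15 genes for these steps, 3 rose and 3 fell, beside the same background of 32.3%. Mmp9 (0.44), the heparan sulfate polymerase Ext1 (0.31) and the proteoglycan core Sdc2 (0.29) rose, whereas the proteoglycan cores Sdc3 (-0.37) and Sdc4 (-0.25) and the chemokine-trimming peptidase Dpp4 (-0.20) fell. Among 13 genes for other attractants and their receptors, Mif (0.46), a CXCR4-binding cytokine, rose and Cmklr1 fell. The other 11 were not called, beside the same background of 32.3% called. The lists had median log2 fold changes from -0.07 to 0.17, beside 0.01 for all genes tested.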

How the data were processed

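Total RNA of whole lungs was extracted (the methods name a column kit, the labels Trizol), and NEBNext libraries were sequenced on a NovaSeq instrument. The authors deposited FPKM values per gene with gene lengths; the submitters' processing notes name Bowtie 0.12.2 and GRCm38, and the counter, strand setting and test are not given in the sources used here. FPKM multiplied by length and divided by a unit inferred for each lung, the value of 1 fragment, gave whole fragments in 100% of values (within 0.01 fragments or 1e-05 of the value). The limit given for a count of 0 covers counting error only.

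Columns of the IncPBF lungs are abbreviated differently from the titles and were matched by day and replicate number. Genes averaging 0.5 FPKM or more were fitted on log2(FPKM + 0.1) with limma 3.58.1 (lmFit, eBayes with trend; R 4.3.3), a scale that understates changes of low genes, and were called at a Benjamini-Hochberg adjusted p under 0.05 over all 15388 genes. Single members were also compared by exact two-sided permutation of FPKM. Members, gene lists and marker lists were chosen with earlier results of these data known. Members called or without overlap are given lung by lung, pathway lists by at most 3 called genes per direction, and marker lists by the genes that passed, beside a member they touch. Ccl12, Cx3cr1, Adam10, Adam17, Rarres2, Scgb1a1, Prox1, Mmrn1, Chil3, Gzma, Nkg7, Klrd1, Prg2 and Epx lie outside this rule and were named with their values seen. The values of 2 listed genes are not reported here. Alternatives were pseudocount, filter, scaling, replicate block, trend, voom, Xist covariate and leaving out each lung.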

Additional observations from a re-analysis of the deposited data

Results flagged for a closer look

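In 4 of the 54 groups of 5 lungs examined, 1 lung lay far from the others of its group, and chance gives about 1 in 20. Ccl5 was at 4.20 FPKM in IncPBF lung 1, against 1.45 to 1.99 in the other IncPBF lungs. Ccl5 was also at 5.62 FPKM in sham lung 5, against 1.63 to 2.40 in the other sham lungs. Cxcl17 was at 7.75 FPKM in sham lung 3, against 0.302 to 1.98 in the others. Cx3cl1 was at 7.11 FPKM in IncPBF lung 4, against 8.19 to 8.55 in the other IncPBF lungs, and it was called lower also without this lung.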

How the results depend on the processing

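The 4 upregulated and 5 downregulated members became 1 and 1 with the Xist covariate, and 7 and 3 without a filter on low values. The downregulated members numbered 3 with an equal total per lung. Leaving out each lung in turn gave 4 to 5 upregulated and 3 to 6 downregulated members, with 3 downregulated without IncPBF lung 2 or IncPBF lung 4, where Cxcl15 and Ackr2 were lost. Genes of the pathway lists went from 8 upregulated to 3 with the Xist covariate, and from 11 downregulated to 5 with an equal total per lung and 0 with the covariate. Marker list genes went from 7 upregulated to 1 and from 28 downregulated to 8 with the covariate. Members that were not called and had small or variable differences changed sign. Ccl5 (-0.19) was at 0.81 with the covariate and between -0.44 and 0.11 when a lung was left out, with 0.11 without sham lung 5. Cxcl17 (0.31) was at -0.10 with the covariate and between -0.25 and 0.83 when a lung was left out. Cxcr6 (0.24) was at -0.12 with the covariate. Ccl6 (0.00) ranged from -0.11 to 0.086 when a lung was left out. Cxcr3 (-0.00) was at 0.071 with an equal total per lung, 0.000486 with voom, 6.85e-05 with a pseudocount of 0.01 and between -0.041 and 0.054 when a lung was left out. The cause of these changes was not tested. With the replicate number as a block, 4 members were upregulated and 4 downregulated, and Cxcl15 was lost (adjusted p = 0.0764). Lungs of the same number shared only the number, since the correlations of their deviations were -0.07 to 0.09 and 2 of 5 lungs correlated best with their own number. Depth limits Ccl7 and the untested members, which rest on few fragments.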

Other observations

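Dendritic cell markers, beside the ligands Ccl17 and Ccl22 and the receptor Ccr7 of which none was called, moved in both directions. Of the 6 tested, Fscn1, an actin-bundling gene of mature dendritic cells and other cells, rose (log2 fold change 0.79, limma adjusted p = 0.00154), whereas Clec9a (-0.88, adjusted p = 1.74e-05) and Zbtb46 (-0.38, adjusted p = 0.00115) fell. Clec9a was at 10.2 to 12.7 FPKM in the IncPBF group and 18.5 to 22.7 in the sham group. The other 3 markers tested were not called. Which cells gave the Clec9a and Zbtb46 reads is not known in bulk tissue. The T cell markers, beside Cxcr3 and Cxcr6 and, with the NK and cytotoxic list, Ccl5, had 1 fall among 9 tested, that of the interleukin receptor gene Il7r (-0.70, adjusted p = 0.00822), from 1.81 ± 0.319 to 1.08 ± 0.233 FPKM (SD, n = 5 each).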
